A study of Mus musculus with 22 samples.

Results

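Variation between cohorts and litters was examined in CD11b+ cells from the brains of P14 mice of the outbred CF-1 strain, all labelled wildtype, in which littermates share more of their genome than animals of different litters do. The comparison set 4 animals whose names begin with P4H against 4 animals whose names begin with P6H, chosen by name prefix among the HIE and Control animals. They gave 10 of the 22 libraries of the series, because P4H1-6F and P6H12-11M each had 2 libraries, which were summed. HIE animals came from dams given LPS, a bacterial product that activates immunity, before birth, and the pups then had a period of hypoxia, whereas Control dams received saline. Animals that share a name up to the dash are called a litter here, and neither the labels nor the methods define these prefixes. Cohort here means only the name prefix, and whether it marks a cohort, an age at the procedure or a series of cages is not known. P4H comprised the HIE litter P4H1 (1M and 6F) and the Control litter P4H4 (8M and 7F), and P6H comprised the HIE litter P6H12 (11M and 14F) and the Control litter P6H8 (7M and 8F), where M and F are the sex labels. Each treatment in each cohort was thus 1 litter of 2 siblings, so within a cohort, treatment and litter cannot be told apart. A further 4 hypoxia animals, from the litters P6H7 and P6H9, were measured with the same prefix P6H and are described beside the comparison without entering it.

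CD11b is an integrin subunit on microglia and other myeloid cells, and beads carrying its antibody enrich these cells from dissociated brain. Microglia are the resident macrophages of brain tissue, and in the second postnatal week they still divide. Dividing cells make histones for new chromatin, and the mRNAs of these replication-dependent histones end in a conserved stem-loop in place of a poly(A) tail, so they are kept by total-RNA libraries. The stem-loop sets this class apart by sequence, and for that reason the sites of 5 members on chromosome 13 of GRCm39 are shown with the stem-loop in capitals, read from the GENCODE M39 transcripts on the strand of the gene. They are H3c2 (chr13:23936798-23936823, plus strand), H3c1 (chr13:23945868-23945893, minus strand), H2bc8 (chr13:23756012-23756037, plus strand), H2ac4 (chr13:23935550-23935575, plus strand) and H4c4 (chr13:23765928-23765953, plus strand).
H3c2: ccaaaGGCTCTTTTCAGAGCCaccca
H3c1: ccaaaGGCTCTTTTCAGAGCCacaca
H2bc8: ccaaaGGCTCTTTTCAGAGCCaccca
H2ac4: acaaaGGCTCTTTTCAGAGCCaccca
H4c4: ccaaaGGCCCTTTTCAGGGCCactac
The stem-loop was found in the last 1000 bases of a transcript for 45 genes, or 0.079% of all genes in the table.

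Total counts were 33861120 to 76166694 in the P4H animals and 29751486 to 70491706 in the P6H animals, and 3 counts, taken as the smallest level told from 0, equalled 0.0394 to 0.101 CPM on raw library totals. All levels of genes are CPM with the library total multiplied by its TMM factor. Of 56691 genes, 20935 were tested. The sex label held in all 8 animals, with 1380 to 2032 CPM of Xist in the 4 females and at most 0.864 CPM in the 4 males. Microglia markers had mean log2 CPM of 10.04 to 10.65 in P4H animals and 9.79 to 10.16 in P6H animals, so the labelled cell type was abundant in every library. Markers of other cells were present too. Astrocyte markers scored 5.66 to 7.03 in P4H and 5.52 to 5.95 in P6H animals, and oligodendrocyte lineage markers 5.05 to 7.15 and 5.66 to 6.42. In bulk samples, fewer cells of a type and less RNA per cell cannot be told apart.

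Siblings were the most alike of different animals by median. As a measure, the absolute log2 difference between 2 libraries was taken per gene outside the sex chromosomes and its median over genes computed, with 1 library per animal. The median difference was 0.106 and 0.111 for the 2 pairs of libraries from the same animal and 0.191 to 0.282 for the 4 sibling pairs. It was 0.208 to 0.322 for the 8 pairs of animals from different litters of the same cohort, which also differ in treatment. For the 8 pairs of the same treatment but different cohort it was 0.226 to 0.403, and for the 8 pairs that differed in both it was 0.253 to 0.463. The median pair of each kind thus rose from 0.225 in siblings to 0.257 within a cohort and 0.316 between cohorts of 1 treatment (0.303 where treatment differed too), although the ranges overlapped. Pairs share animals and are no independent samples, so no test was made. Of the squared deviation of log2 CPM summed over genes, 26% lay between the cohorts, 18.3% between the treatments, 13.6% in their interaction and 42% between siblings within litters, with 1 degree of freedom for each of the others and 4 for the last, in which sex is included.

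Between the cohorts many genes differed by a small amount and few could be singled out. With treatment as a covariate, the quasi-likelihood test of edgeR found 250 genes past an adjusted p-value of 0.05, referred to as called genes, 1.19% of those tested, of which 143 (0.683%) were higher in P4H and 107 (0.511%) higher in P6H. These calls lay close together at the threshold. The smallest adjusted p-value was 0.0475, 0 genes passed 0.04, 828 passed 0.06 and 2771 passed 0.1. Before adjustment 5657 genes had p-values under 0.05, where 1047 would be expected with no difference, and they divided into 2659 (12.7% of tested genes) higher in P4H and 2998 (14.3%) higher in P6H. That expected number takes siblings as independent and allows for no difference between litters. With litters as 4 groups, 3184 genes had unadjusted p under 0.05 between the P4H litters and 1327 between the P6H litters, which also differ in treatment. These contrasts set 2 animals against 2, so their counts are not on a par with the 5657 from 4 against 4. The like contrasts between cohorts gave 4780 genes for the HIE litters and 2566 for the Control litters. All 4 animals of one cohort lay above all 4 of the other in 3388 (16.2%) of all tested genes. It was so in 232 of the 250 called genes, but these were selected on the same animals, so their separation is no further evidence. In the same fit the treatment term called 2 genes (0.00955%).

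The number of called genes depended on single animals. It was 0 without P4H1-1M, P4H4-7F, P4H4-8M, P6H12-14F or P6H8-7M, 9 without P6H12-11M, 484 without P4H1-6F and 2666 without P6H8-8F. In the 5 fits with 0 calls, 4076 to 5033 genes had unadjusted p-values under 0.05, and DESeq2 called 2835 genes on all 8 animals. Siblings are moreover not independent samples of a cohort. With the 2 siblings summed, so that 2 litters stood against 2, 12 genes were called, and 3 of these were among the 250. When counts were scaled by library totals in place of TMM, 902 genes were called and the division turned to 149 higher in P4H and 753 higher in P6H, as the median of all tested genes moved from 0.007 to -0.11 on the log2 scale. Gene names below are therefore given with their values in each animal, and groups of genes by their medians.

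**Figure D1:**
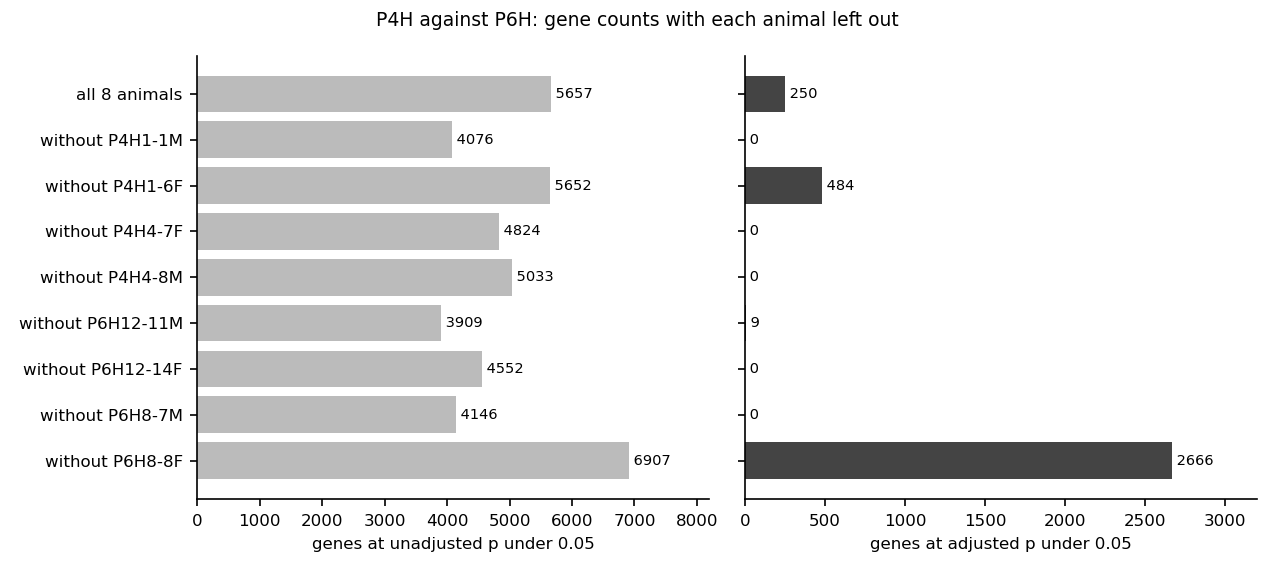
Number of genes at an unadjusted (left) and adjusted (right) p-value under 0.05 in the comparison of P4H with P6H, for all 8 animals and with each animal left out in turn. The unadjusted count stayed between 3909 and 6907, whereas the adjusted count ran from 0 to 2666.

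Because the HIE litters (P4H1 and P6H12) and the Control litters (P4H4 and P6H8) share no animal, the cohort difference in one can be read against the other. At unadjusted p under 0.05, 4780 genes (22.8%) differed between the HIE litters, and 4036 of these (84.4%) had the same direction between the Control litters. Of the 2566 genes (12.3%) that differed between the Control litters, 2095 (81.6%) had the same direction between the HIE litters. Over all tested genes the same direction was found for 67.4%, and Pearson's r between both sets of log2 fold changes was 0.32 across genes, which are not independent replicates. After adjustment the picture was another one. Only 14 genes (0.0669%) were called between the HIE litters and 4 (0.0191%) between the Control litters, and of these 7 and 1 had the same direction in the other pair. The genes of smallest p-value within a treatment were mostly those that set 1 litter apart, described further on.

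**Figure D2:**
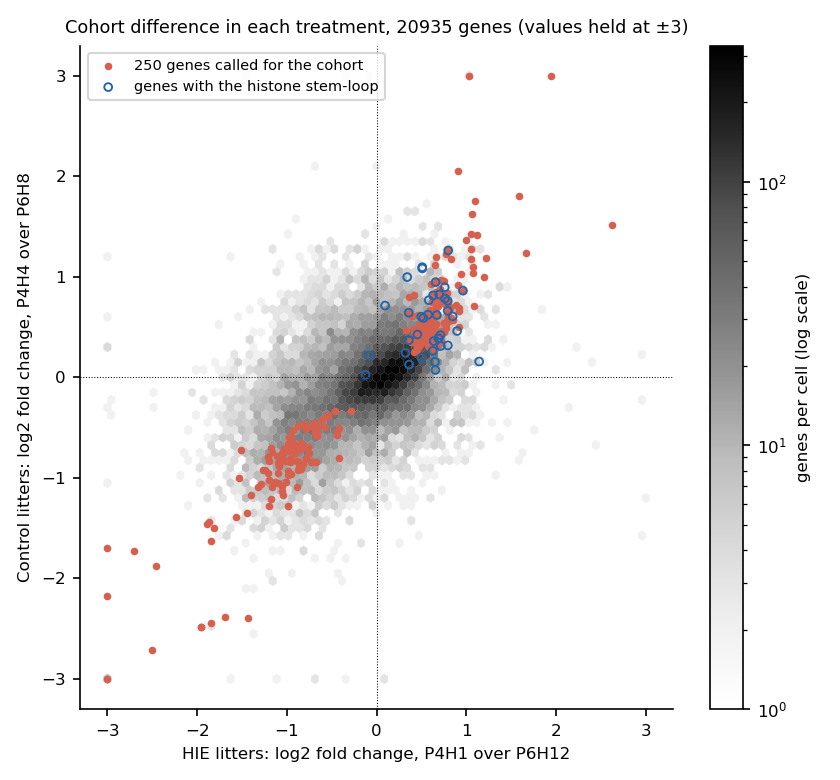
Log2 fold change of P4H over P6H between the Control litters (y axis) against that between the HIE litters (x axis) for 20935 genes, with shading for the number of genes, red points for the 250 called genes and blue rings for genes with the histone stem-loop, with values held at 3 on either side. The cloud is tilted upward, and called genes, which were selected on both axes together, lie in the lower left and upper right.

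Histone genes were the group that differed most clearly. Of 60 replication-dependent histone genes listed, 58 were tested, and 20 were called, all 20 higher in P4H. At unadjusted p under 0.05, 52 of the 58 were higher in P4H and 0 higher in P6H, compared with 12.7% and 14.3% of all genes. Their median log2 fold change was 0.66, beside 0.007 for all tested genes, and it was 0.66 between the HIE litters and 0.62 between the Control litters. The mean log2 CPM of the list was 4.05, 3.91, 3.96 and 3.78 in P4H1-1M, P4H1-6F, P4H4-7F and P4H4-8M and 3.28, 3.40, 3.22 and 3.20 in P6H12-11M, P6H12-14F, P6H8-7M and P6H8-8F. The lowest P4H animal was thus above the highest P6H animal, and the 2 litters overlapped within P4H but not within P6H. With each animal left out the median of the list was 0.59 to 0.69, beside 0.66 with all animals. These are differences of mean log2 CPM balanced over treatment, without a new fit. In new edgeR fits the median log2 fold change was 0.53 with library totals and 0.73 with the microglia marker score as a covariate. In the fit with that score 0 genes of the table were called and 2185 had unadjusted p under 0.05.

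Of the histones, H2ac6, which encodes an H2A protein, had the largest fold change among called members. Its level was 8.66, 8.69, 16.96 and 9.02 CPM in the P4H animals, in the order above, and 3.99, 4.13, 3.94 and 3.68 CPM in the P6H animals (log2 fold change 1.42, SE 0.22, edgeR adjusted p = 0.0475). P4H4-7F was the highest, with no overlap between cohorts. H3c1 (log2 fold change 1.03, SE 0.14, edgeR adjusted p = 0.0475) and H2bc9 (1.00, SE 0.14, edgeR adjusted p = 0.0475), which encode an H3 and an H2B protein, followed. H3c2, whose stem-loop is shown above, was at 25.5, 21.5, 19.99 and 23.4 CPM in P4H and 10.4, 13.8, 11.8 and 11.9 CPM in P6H animals (log2 fold change 0.91, SE 0.12, edgeR adjusted p = 0.0475). The smallest changes among called members were those of H3c6 (0.50), H4c4 (0.54) and H3c10 (0.60). Reads of such near-identical genes are divided among them by RSEM, so the values of single members are uncertain.

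Selected by sequence alone, 38 tested genes had the histone stem-loop, of which 34 are in the list. In a further 24 tested genes of the list no stem-loop was matched, H2ac6, H2bc9 and H3c10 among them, so list and motif agree only in part. Of the 38, 11 were called and 31 had unadjusted p under 0.05, all higher in P4H, and their median log2 fold change was 0.56. Outside the list, H2ax, an H2A variant that marks DNA breaks, had a log2 fold change of 0.36 (edgeR adjusted p = 0.0679), H2ac7 of 0.44 (0.292), H2bc27 of 0.41 (0.337) and H1f6, a testis H1 histone, of 0.05 (0.950), so that none of these 4 was called. They are named because they make up the small remainder of the class. H1f0, in which no stem-loop was matched and which encodes a linker histone that is made outside S phase, was also higher in P4H. It had 118, 117, 125 and 119.5 CPM in P4H and 78.4, 80.8, 73.5 and 81.6 CPM in P6H animals, with the smallest p-value of the table (log2 fold change 0.60, SE 0.06, edgeR adjusted p = 0.0475). The lowest P4H animal was above the highest P6H animal, and the SD was 3.40 CPM in P4H and 3.65 CPM in P6H. The hypoxia animals, of the same prefix P6H, lay between these ranges, with 105 and 88.5 CPM in P6H7 and 109 and 82.3 CPM in P6H9. H4c16, an H4 gene on chromosome 6, was at 35.7 to 44.0 CPM in P4H and 21.9 to 25.5 CPM in P6H (log2 fold change 0.73, SE 0.10, edgeR adjusted p = 0.0475).

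Genes of DNA synthesis were also higher in P4H. Of 22 DNA replication genes, 4 were called and 13 had unadjusted p under 0.05, all higher in P4H, and the median log2 fold change was 0.33 (0.49 between the HIE litters and 0.35 between the Control litters). Called were Pcna, the sliding clamp of the polymerase, and Mcm2, Mcm4 and Mcm6, subunits of the replicative helicase. Pcna stood at 68.5, 66.8, 63.1 and 59.0 CPM in P4H and at 44.0, 49.4, 47.3 and 47.8 CPM in P6H animals (log2 fold change 0.44, SE 0.07, edgeR adjusted p = 0.0481), without overlap. Mcm4 stood at 33.3, 32.5, 22.96 and 27.8 CPM in P4H and 22.1, 23.3, 17.8 and 17.8 CPM in P6H animals (log2 fold change 0.52, SE 0.09, edgeR adjusted p = 0.0481), and P4H4-7F overlapped with P6H12-14F. For Mcm4, the HIE litter was above the Control litter in both cohorts. Of 20 mitosis genes 0 were called by edgeR, 15 had unadjusted p under 0.05, all higher in P4H, DESeq2 called 9, and the median was 0.47. The 2 most abundant, Mki67 and Top2a, which mark dividing cells, had log2 fold changes of 0.22 (edgeR adjusted p = 0.440) and 0.39 (0.147). The mean log2 CPM of the mitosis genes was 3.49 to 3.65 in P4H and 2.75 to 3.44 in P6H animals.

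**Figure D3:**
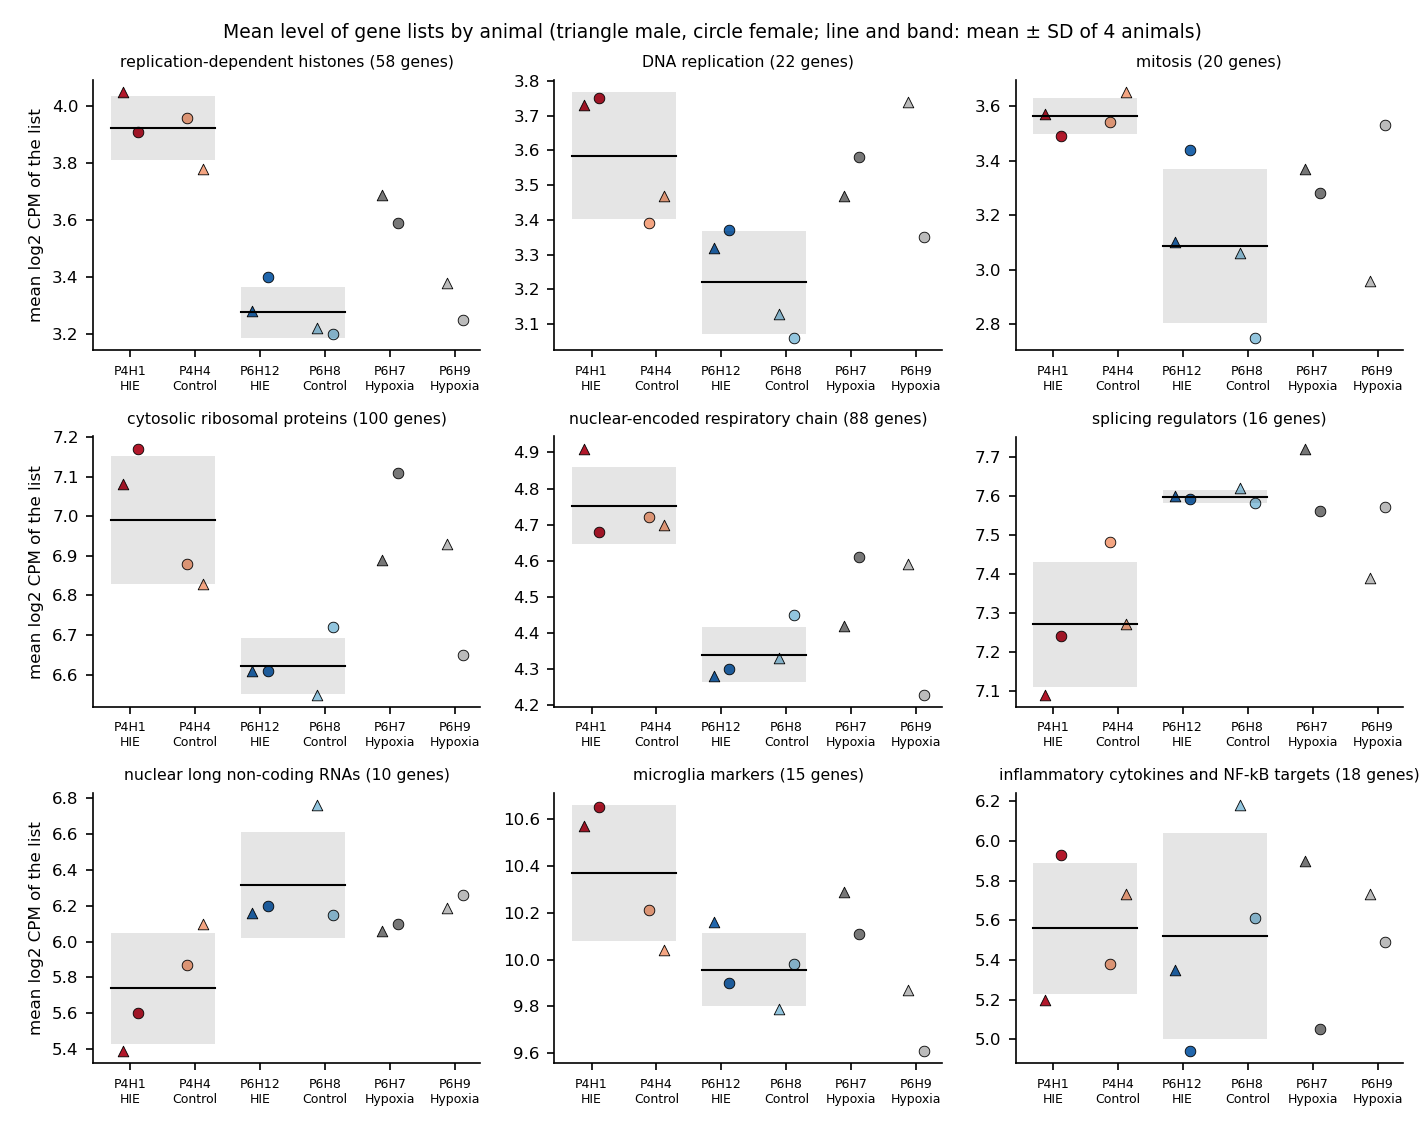
Mean log2 CPM of 9 gene lists in each animal, grouped by litter along the x axis with the treatment beneath, where triangles are males, circles females, and lines with bands give the mean ± SD of the 4 animals of each cohort. Histones, ribosomal proteins and respiratory chain genes show no overlap between P4H and P6H, splicing regulators are lower in P4H, and inflammatory genes overlap. The hypoxia animals are grey.

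Ribosomal and respiratory genes were likewise higher in P4H. These lists were made from gene symbols after the results were seen. Of 100 cytosolic ribosomal protein genes, 8 were called and 81 had unadjusted p under 0.05 in the direction of P4H, while 2 had it in the direction of P6H. Their median log2 fold change was 0.40 (0.57 between the HIE litters and 0.24 between the Control litters), 0.29 with library totals and 0.14 with the microglia marker score as a covariate. Rps7, a protein of the small subunit, rose from 161 ± 9.90 CPM in P6H to 234 ± 22.0 CPM in P4H (SD, n = 4, log2 fold change 0.53, SE 0.07, edgeR adjusted p = 0.0475). Rps26 (log2 fold change 0.54) and Rpl38 (0.51) had the other largest changes among called members, and Rps21 (0.44) the smallest. The list's mean log2 CPM was 6.83 to 7.17 in P4H and 6.55 to 6.72 in P6H animals.

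Of 88 nuclear-encoded genes of the respiratory chain and ATP synthase, 18 were called and 73 had unadjusted p under 0.05, all higher in P4H, with a median log2 fold change of 0.40 (0.50 and 0.31 between the HIE and the Control litters). Cox8a, a subunit of cytochrome c oxidase, was at 107, 84.5, 105 and 97.5 CPM in P4H and 51.7, 49.6, 62.9 and 64.7 CPM in P6H animals (log2 fold change 0.79, SE 0.09, edgeR adjusted p = 0.0475), so that the cohorts did not overlap. Ndufs5 (0.71) and Cox6a1 (0.70), of complex I and of cytochrome c oxidase, came next. Of the 13 protein-coding genes of the mitochondrial genome 0 were called and 6 had unadjusted p under 0.05, all higher in P4H, with a median of 0.33, and DESeq2 called 3. Here the Control litters differed by 0.50 and the HIE litters by 0.17, and the difference of these differences was not tested.

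Further called genes of smallest p-value were of varied function. Trak2, an adaptor that carries mitochondria along microtubules, was at 164, 121, 198 and 197 CPM in P4H and 72.2, 80.3, 101 and 107 CPM in P6H animals (log2 fold change 0.91, SE 0.10, adjusted p = 0.0475 by edgeR). Its level was higher in the Control litter than in the HIE litter of each cohort, and the cohorts did not overlap. Selenow, a small selenoprotein (log2 fold change 0.69), Apcdd1, an inhibitor of Wnt signaling (0.81), Sqor, which oxidizes hydrogen sulfide in mitochondria (0.63), and Dok4, a docking protein (0.81), shared that adjusted p. In the hypoxia animals Apcdd1 reached 205 CPM in P6H7-8F and 185 CPM in P6H9-15F, inside the range of P4H, and Sqor reached 96.9 CPM in P6H7-16M, above the 71.0 to 87.5 CPM of P4H. Among called genes of P4H that were of other classes or had a Gm or Rik symbol, 3 had the smallest p-values. These were the lncRNA 2310008N11Rik, the pseudogene Rps7-ps3 (log2 fold change 0.50) and Rps2-ps13. The lncRNA was at 0.67 to 1.02 CPM in P4H and 0.06 to 0.21 CPM in P6H, there with only 2 to 12 counts. In the hypoxia animals it was at 1.48 and 2.21 CPM in P6H7, above P4H, and at 0.05 and 0.03 CPM in P6H9. Rps2-ps13 was called on litter P4H4 alone, as described further on.

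Vipr1, a receptor for vasoactive intestinal peptide, had the lowest log2 fold change among the named protein-coding genes called between the cohorts. Its level was 1.72, 1.98, 2.47 and 3.12 CPM in P4H and 14.4, 9.69, 10.5 and 7.93 CPM in P6H animals (log2 fold change -2.22, SE 0.25, edgeR adjusted p = 0.0475). The hypoxia animals were divided, with 3.94 and 1.94 CPM in P6H7 and 10.8 and 4.41 CPM in P6H9. Gm47097, an unreviewed transcript whose start at 121458957 on chromosome 9 lies near that of Vipr1 at 121471775, was lower in P4H too, at 0.15 to 0.34 CPM against 0.97 to 2.29 CPM (log2 fold change -2.67, SE 0.33, edgeR adjusted p = 0.0475). Col6a6, a chain of collagen VI, was at 1.91, 1.47, 1.39 and 1.83 CPM in P4H and 5.56, 6.28, 3.82 and 5.23 CPM in P6H animals (log2 fold change -1.66, SE 0.20, edgeR adjusted p = 0.0475). The TEC transcripts Gm42907 and Gm43361 had log2 fold changes of -1.08 and -1.19. Vipr1, Gm47097 and Col6a6 were lowly expressed but did not overlap between the cohorts.

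Genes of RNA processing and long nuclear RNAs were higher in P6H. Among the called genes of smallest p-value, Luc7l3 and Prpf39, factors of U1 snRNP, had log2 fold changes of -0.46 and -0.51, Rsrp1 of -0.58 and Ogt, the enzyme of O-GlcNAc addition, of -0.60, each at edgeR adjusted p = 0.0475. Rsrp1, for example, was at 131, 118, 153 and 140 CPM in P4H and 217, 191, 202 and 195 CPM in P6H animals. Samhd1, which degrades dNTPs, fell from 85.04 ± 5.98 CPM in P6H to 61.8 ± 3.46 CPM in P4H (SD, n = 4), Mtcl2 had a log2 fold change of -0.62 and Thoc2l of -0.61. In a list of 16 splicing regulators written after the results were seen, 3 were called and 12 had unadjusted p under 0.05, all higher in P6H, with a median of -0.32. The list's mean log2 CPM was 7.58 to 7.62 in the 4 P6H animals and 7.09 to 7.48 in the P4H animals, which spread more. Of 10 nuclear long non-coding RNAs, a list of the same kind, 2 were called and 6 had unadjusted p under 0.05, all higher in P6H, with a median of -0.63. Ftx, transcribed from the X-inactivation centre, fell from 18.9 ± 1.55 CPM in P6H to 11.5 ± 1.24 CPM in P4H (SD, n = 4, log2 fold change -0.73, edgeR adjusted p = 0.0475), and Kcnq1ot1, an imprinted antisense RNA, from 183 ± 41.8 to 106 ± 27.0 CPM (SD, n = 4, log2 fold change -0.83, edgeR adjusted p = 0.049955). Malat1, the most abundant member, had 6154, 7678, 8772 and 9798 CPM in P4H and 12060, 12590, 11630 and 8942 CPM in P6H animals, and was not called (log2 fold change -0.50, edgeR adjusted p = 0.150).

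The same contrast was seen between classes of genes. Of 1586 transcripts of the GENCODE class TEC, which still await experimental proof, 0 were called higher in P4H and 48 higher in P6H, and 976 (61.5%) had unadjusted p under 0.05 in the direction of P6H, with a median log2 fold change of -0.76. For 2586 lncRNAs the median was -0.41, with 1 and 29 called, and for 823 processed pseudogenes -0.44, with 2 and 0 called. For 15336 protein-coding genes it was 0.07, with 139 and 27 called. When protein-coding genes alone were fitted, 0 were called by edgeR, and 3270 had unadjusted p under 0.05. Among the TEC transcripts, 1068 lie inside an intron of a coding gene on the same strand. Their median was -0.81, compared with -0.62 for 474 TEC transcripts that lie in no coding gene. In 1062 pairs of an intronic TEC transcript and a tested host gene, the TEC transcript had the lower log2 fold change in 1048, and the median difference to the host was -0.75 (-0.88 between the HIE litters and -0.61 between the Control litters). Reads of an unspliced host transcript and of a TEC transcript inside its intron cannot be told apart.

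Coding genes also differed by length. In 5 bins of equal size by exonic length, with median lengths of 2442, 4374, 6125, 8370 and 12636 bases, the median log2 fold change was 0.17, 0.12, 0.08, 0.04 and -0.03. In the shortest bin 23.2% of genes had unadjusted p under 0.05 in the direction of P4H and 3.8% in that of P6H, and in the longest bin 8.4% and 14%. With library totals the medians were 0.05, 0.01, -0.04, -0.08 and -0.15, so the order remained and the sign of bins 3 and 4 turned. TMM factors were 0.936 to 1.01 in P4H and 1.02 to 1.07 in P6H animals. Exonic length, intronic transcripts and nuclear RNAs thus moved with the cohort together with the histone, ribosomal and respiratory genes, and their part in those results was not tested. With the microglia marker score as a covariate, the median was -0.36 for TEC transcripts, -0.23 for lncRNAs and 0.06 for the shortest bin of coding genes.

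**Figure D4:**
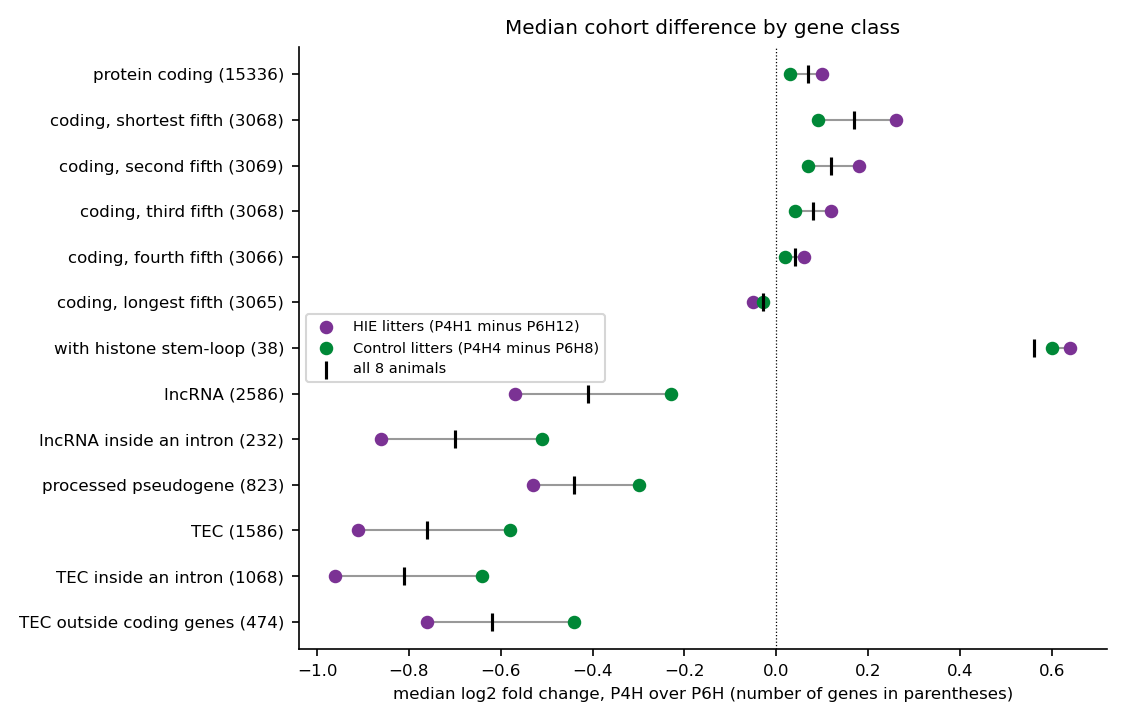
Median log2 fold change of P4H over P6H (x axis) for gene classes (y axis, number of tested genes in parentheses), between the HIE litters (purple), between the Control litters (green) and over all 8 animals (black line). Classes of non-coding and intronic transcripts lie between -0.96 and -0.23, coding genes nearer 0 in order of length, and stem-loop genes above 0.5.

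Microglial and inflammatory genes showed no called difference between the cohorts. Of 15 microglia markers tested of 16 listed, 0 were called by edgeR and 1 by DESeq2, and 3 had unadjusted p under 0.05, all higher in P4H, with a median log2 fold change of 0.27. Csf1r, the receptor that microglia need to survive, had a log2 fold change of 0.17 (edgeR adjusted p = 0.522). The marker score was highest in litter P4H1, at 10.57 and 10.65, and that of P4H4, at 10.21 and 10.04, overlapped with P6H. One of the markers is Slc2a5, which varied widely between litters and siblings, as described further on. It therefore also enters the fits with this score as a covariate. Of 18 inflammatory cytokines and NF-kB targets, 20 immediate early genes, 18 type I interferon response genes, 15 MHC class I genes, 7 MHC class II genes, 16 complement genes, 12 heat shock genes, 16 axon-tract and disease-associated microglia genes, 12 border macrophage markers and 12 monocyte and neutrophil markers, 0 were called by edgeR. At unadjusted p under 0.05 these lists had 1, 1, 4, 6, 1, 1, 3, 2, 0 and 0 genes in either direction, and DESeq2 called 1, 1, 1, 4, 0, 0, 0, 0, 0 and 0.

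For several of these lists the direction was not the same in both treatments. Between the HIE litters, the inflammatory genes had a median of 0.36 and were higher in P4H for 15 of 18, and between the Control litters the median was -0.28 with 5 of 18 higher. Immediate early genes, which rise when tissue is dissociated, had medians of 0.29 and -0.04, heat shock genes 0.31 and -0.22, and axon-tract and disease-associated microglia genes 0.26 and -0.26. Their 2 most abundant members, Apoe and Ctsb, had log2 fold changes of 0.04 and -0.02 over both treatments. These differences between HIE and Control litters were not tested as lists. Type I interferon genes had medians of -0.24 and -0.22, and glycolysis and hypoxia targets 0.35 and 0.17, with 8 of 18 at unadjusted p under 0.05, all higher in P4H, and 0 called by edgeR and 5 by DESeq2.

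Markers of several other brain cells were also measured. Of 12 astrocyte markers, 1 was called, 8 had unadjusted p under 0.05 and all 12 had a positive log2 fold change, with a median of 0.83, and DESeq2 called 7. Their score differed between the P4H1 siblings (6.64 and 5.66). The called one was Acsbg1, an acyl-CoA synthetase, at 47.2, 22.6, 69.2 and 53.2 CPM in P4H and 13.9, 19.7, 21.5 and 23.7 CPM in P6H animals, where P4H1-6F overlapped with P6H (log2 fold change 1.24, SE 0.23, edgeR adjusted p = 0.049955). Of 12 endothelial and mural markers, Cdh5, the cadherin of vascular junctions, was called (log2 fold change 0.49, edgeR adjusted p = 0.049955) and 8 had unadjusted p under 0.05, all higher in P4H, while DESeq2 called 7. Oligodendrocyte markers had a median of 1.24 between the Control litters and -0.44 between the HIE litters, and 0 of 12 were called by edgeR and by DESeq2, 1 with unadjusted p under 0.05. Erythroid genes scored highest in litter P4H4, with 0 of 6 called by edgeR, 1 by DESeq2 and 4 at unadjusted p under 0.05. Hbb-bs, a beta globin, was at 180, 68.1, 411 and 673 CPM in P4H and 116, 51.1, 85.4 and 41.8 CPM in P6H animals and was not called (log2 fold change 1.82, edgeR adjusted p = 0.111). Of 18 cholesterol genes, Dhcr7, the last enzyme of the pathway, was called (0.46, edgeR adjusted p = 0.049955). Neuron markers had a median of 0.03, lymphocyte markers (3 of 12 tested) of 0.005, choroid plexus markers of 0.15 and Siglec lectins of -0.14, with 0 called by edgeR, and 2, 0, 0 and 1 at unadjusted p under 0.05. The choroid plexus markers had a median of 0.86 between the HIE litters, with 10 of 10 higher in P4H, and of -0.38 between the Control litters, with 0 of 10 higher, and this difference was not tested. DESeq2 called 2 of the neuron markers and 0 in the remaining lists. The part of these cells in the results above was not tested.

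Differences between single litters were large in the genes called for them. The test for any difference between the 4 litters called 18 genes (0.0860%) with edgeR, beside 2827 with DESeq2, 351 without P6H8-8F and 4779 at unadjusted p under 0.05. By edgeR, the test between the P4H litters called 21 (0.1%), that between the P6H litters 4 (0.0191%) and the interaction of cohort and treatment 11 (0.0525%). Together with the tests within HIE and Control litters these amounted to 29 genes (0.139%), of which 2 were among the 250. Over the 18 genes the litters of highest and lowest mean differed by a median of 3.83 on the log2 scale, beside a median absolute difference of 0.75 for the 250 genes called between the cohorts. The first value is a range over 4 litter means and the second a difference between 2 groups. Each set of genes was also selected by its own test on these animals, so the sizes cannot be compared directly. In 13 genes (0.0621%) 1 litter differed from each of the other 3, which did not differ from each other at adjusted p under 0.05. P4H1 was the litter set apart in 9 of them, P6H8 in 3, P4H4 in 1 and P6H12 in 0.

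In litter P4H1 both siblings had much lower or higher RNA levels of several genes than the other litters. Nsa2-ps1, a processed pseudogene on chromosome 19, was at 0.28 and 0.28 CPM in P4H1, 29.3 and 28.5 in P4H4, 11.4 and 11.8 in P6H12 and 21.7 and 24.5 in P6H8 (edgeR adjusted p = 6.57e-05 for any litter difference). The hypoxia litters were divided, with 0.20 and 0.44 CPM in P6H7 and 28.0 and 26.6 CPM in P6H9. H2-Ea, the alpha chain of the class II molecule E, which some MHC haplotypes of mice do not express, had 0 counts in both P4H1 siblings and 10.1 to 20.7 CPM in the other 6 animals (edgeR adjusted p = 0.00115). In P6H9 it had 7.18 CPM in one sibling and 0 counts in the other. Trim30d, of a TRIM family that lies in a cluster on chromosome 7, had the opposite pattern, with 13 and 15.4 CPM in P4H1 and 0.0897 to 0.595 CPM in the other 6 animals (edgeR adjusted p = 0.000899). Both animals of P6H9 resembled P4H1 for this gene, with 13.9 and 16.8 CPM. Hpgd, which inactivates prostaglandins, was at 91.5 and 80.5 CPM in P4H1 and 24.8 to 38.7 CPM in the other 6 (edgeR adjusted p = 0.00583), and P6H7 was as high, with 122 and 124 CPM.

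Of the 29 genes, 3 lay on chromosome 17 between 33 and 39 Mb, the region of the MHC, where 183 genes were tested, or 1.64% called compared with 0.125% elsewhere. The window was chosen after the values were seen, and neighbouring genes are inherited together. Besides H2-Ea (from 34560926) these were D17H6S56E-5 (from 35213198) and the olfactory receptor gene Or5v1 (from 37803176), all lower in P4H1. D17H6S56E-5 was at 10.7 and 9.98 CPM in P4H1 and 46.0 to 89.6 CPM in the other 6 animals, and in P6H9 it was at 63.2 CPM in P6H9-14M and 8.95 CPM in P6H9-15F. The P6H9 sibling with 0 counts of H2-Ea was thus also the one with low D17H6S56E-5. Or5v1 was at 1.88 and 2.42 CPM in P4H1, 8.07 to 12.7 CPM in the other 6 and 2.37 and 1.62 CPM in both P6H9 animals.

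The other litters had fewer such genes. Rps2-ps13, a processed pseudogene on the X chromosome, was at 132 and 129 CPM in P4H4 and 0 to 0.407 CPM in the other 6 animals (edgeR adjusted p = 0.00141 for any litter difference), although it was among the genes called between cohorts. Of the hypoxia animals P6H9-14M had 140 CPM and the other 3 had 0.12 to 0.521 CPM. BC018473, a lncRNA, was at 0.0313 and 0.0287 CPM in P6H8, below the floor of 3 counts, and at 2.62 to 17.05 CPM in the other 6 animals (edgeR adjusted p = 0.0204). The hypoxia animal P6H9-14M was as low, at 0.026 CPM, whereas P6H9-15F had 26.4 CPM and the P6H7 animals 35.8 and 14.8 CPM. Rnf26rt was at 0 and 0.0287 CPM in P6H8 and 2.37 to 2.90 CPM in the other 6 animals, with 2.24 to 5.23 CPM in the hypoxia animals (edgeR adjusted p = 0.0204). The gene ENSMUSG00000067017.6, which has no entry in GENCODE M39, was at 78.0 and 41.2 CPM in P6H8 and 1.73 to 2.56 CPM in the other 6 (edgeR adjusted p = 0.00111). In each hypoxia litter 1 sibling was high, with 58.3 CPM in P6H7-16M and 50.1 CPM in P6H9-14M, and the other low, with 2.96 and 2.25 CPM. Values for processed pseudogenes are uncertain because reads of their parent genes can be assigned to them.

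Some litters were alike across both cohort and treatment. Gm3226, a pseudogene on chromosome 13, was at 18.7 and 18.7 CPM in P4H4 and 14.7 and 33.8 CPM in P6H12, but at 0.78 to 1.14 CPM in P4H1 and 0.66 to 1.10 CPM in P6H8 (edgeR adjusted p = 0.00437 for the interaction). Gm42427 was at 78.7 and 96.0 CPM in P4H1 and 69.6 and 67.7 CPM in P6H8, and at 34.0 to 37.0 CPM in the other 4 animals (edgeR adjusted p = 0.00473 for the interaction). Both genes therefore moved one way between the HIE litters and the other way between the Control litters. Other genes of smallest p-value between the HIE litters were the pseudogene Csnk2a1-ps3, at 50.0 and 24.3 CPM in P4H1 and 2.21 to 3.86 CPM in the other 6, and Ccnt1, a cyclin of transcription elongation, at 168 and 206 CPM in P4H1 and 77.4 to 96.5 CPM in the other 6. Ccnt1 was higher still in P6H9, at 246 and 270 CPM. Vps37b, a sorting protein named after its values were seen, was alike in litters of the same treatment, with 37.7 to 53.3 CPM in the HIE animals and 104 to 133 CPM in the Control animals of both cohorts (edgeR adjusted p = 0.0403 for any litter difference). The hypoxia litters, which share a treatment, differed from each other, with 172 and 213 CPM in P6H7 and 47.6 and 42.1 CPM in P6H9.

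**Figure D5:**
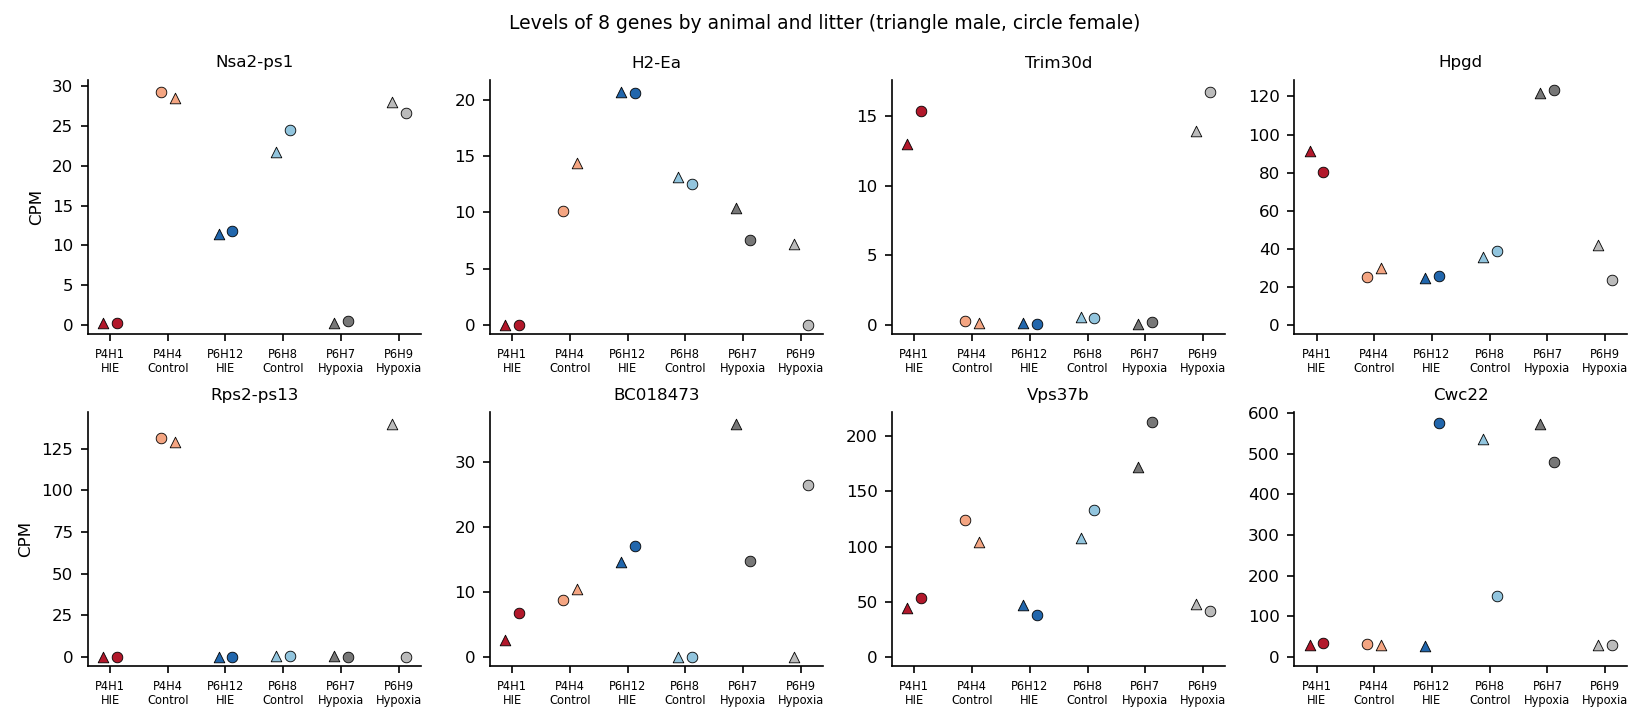
CPM of 8 genes (y axis, a separate linear scale each) in each animal by litter, with triangles for males and circles for females. Nsa2-ps1, H2-Ea, Trim30d and Hpgd set P4H1 apart, Rps2-ps13 P4H4 and BC018473 P6H8, Vps37b is lower in both HIE than in both Control litters and differs between the hypoxia litters, and Cwc22 differs between siblings. The hypoxia animals are grey.

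Siblings of a litter could also be far apart. Between sibling libraries 62 to 69 genes outside the sex chromosomes differed over 8-fold in log2 CPM, beside 28 and 30 between the 2 libraries of the same animal. Counting genes outside the Y chromosome, Xist left out, with at least 5 CPM in one sibling and an 8-fold difference after adding 0.1 CPM, a rule set after the data were seen, there were 11 of 12569 genes in P4H1 (0.0875%), 12 of 12713 in P4H4 (0.0944%), 26 of 12628 in P6H12 (0.206%) and 25 of 12905 in P6H8 (0.194%). These were 64 different genes, of which 20 are pseudogenes and 32 protein-coding. With 1 animal on each side no test is possible. The examples that follow were chosen after their values were seen. Cwc22, a splicing factor gene whose copy number varies between mouse strains, was at 28.9, 33.9, 32.5 and 30.02 CPM in P4H, at 26.8 CPM in P6H12-11M and 575 CPM in P6H12-14F, and at 536 CPM in P6H8-7M and 150 CPM in P6H8-8F. Both P6H7 animals were high (574 and 480 CPM) and both P6H9 animals low (29.2 and 30.5 CPM). All 6 tested genes of its family had unadjusted p under 0.05 between the cohorts, and 0 were called (for Cwc22, log2 fold change -3.36, SE 0.79, edgeR adjusted p = 0.0578, while DESeq2 called all 6). Since Cwc22rt1, Cwc22rt2, Cwc22rt4, Cwc22rt5 and Cwc22rt7 had identical values in every animal, they are one measurement, although each was counted in P6H12 above. Cwc22rt6, also counted there, had the same values as these in P6H12-14F, P6H8-7M and P6H8-8F. The snRNA genes Gm24950, Rnu2-10 and Gm23849, each counted in P6H8, also had identical values in every animal. Gm26992, which overlaps Xist in position, was counted in P4H1 and P6H12. The larger counts of the P6H litters, and the 64 different genes, thus rest in part on repeated measurements.

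Siglece, which encodes a sialic acid-binding lectin, was at 14.3 CPM in P4H1-1M and at 0.0927 to 0.356 CPM in the other 7 animals, its sister P4H1-6F included, and for this reason failed the filter on low counts. Garin3 was at 37.9 CPM in P6H12-11M and at most 0.0313 CPM in the other 7. The pseudogene Rps3a3 was at 60.3 CPM in P6H12-11M and 62.1 CPM in P6H8-8F, and their siblings had 0.239 and 0.0313 CPM. In P4H4 both siblings had it (71.2 and 68.4 CPM) and in P4H1 both were low (0.505 and 0.378 CPM), so a gene that differed between siblings in one litter was uniform in another. Slc2a5, a fructose transporter found in microglia and a member of the microglia marker list, was at 186 and 185 CPM in P4H1, 33.2 and 29.1 CPM in P4H4, 12.7 and 13.7 CPM in P6H12 and 73.3 and 7.27 CPM in P6H8. C2, a complement protease, was at 0.957 CPM in P6H12-14F and 7.08 to 23.1 CPM in the other 7 animals.

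The hypoxia animals share the prefix P6H but no litter with the 8 animals compared. In 193 of the 250 called genes (77.2%) their mean log2 CPM lay nearer to the mean of the P6H animals than to that of the P4H animals, as did 57.3% of all tested genes. The share differed by animal, with 69.6% and 51.6% in P6H7-16M and P6H7-8F and 59.2% and 84.4% in P6H9-14M and P6H9-15F, where all tested genes gave 53.8%, 50.9%, 47.7% and 65.4% in the same order. For TEC transcripts the mean lay nearer to P6H in 79.3% and for stem-loop genes in 81.6%. The histone list scored 3.69 and 3.59 in P6H7 and 3.38 and 3.25 in P6H9, so that P6H7 lay between the cohorts and P6H9 inside the range of P6H. Ribosomal protein genes scored 6.89 and 7.11 in P6H7 and 6.93 and 6.65 in P6H9, so that all but P6H9-15F lay within the range of P4H. These animals had a treatment of their own, so their position cannot be told apart from it.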

How the data were processed

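Total-RNA libraries of CD11b+ cells were made by the authors with a stranded kit that depletes ribosomal RNA. Reads were mapped to GRCm39 with STAR, and the authors deposited RSEM expected counts per gene, not normalized, in which 85.3 to 86.5% of values were whole numbers. RSEM divides reads among near-identical genes. Counts were rounded, and libraries of 1 animal summed. Of 56691 genes, 56017 matched GENCODE M39 and 674 did not. The annotation used by the authors is not given in the sources used here.

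Cohort was fitted with treatment as a covariate over the 8 HIE and Control animals, and litters as 4 groups, with edgeR 4.0.16 (R 4.3.3; filterByExpr, TMM, default quasi-likelihood fit, Benjamini-Hochberg adjustment over all tested genes, threshold 0.05). Log2 CPM used a prior count of 2. The fits were also run on simulated counts, drawn independently for each animal with no litter effect, so that run does not bear on the likeness of siblings. Alternatives were DESeq2 1.42.0, the bias-adjusted fit, RLE, no filter, a sex covariate, first libraries, each animal left out, and for the cohort also no treatment covariate, litters summed, hypoxia animals added, a microglia score covariate and coding genes alone. Library totals were added after the data were seen. P-values measure the spread between these animals only, of which siblings share a litter, and counting floors cover counting error only.

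Members and gene lists were chosen with earlier results of these data known, and 5 lists (splicing regulators, nuclear RNAs, ribosomal, respiratory and mitochondrially encoded genes) after the values were seen. Named were, per direction, the 10 called coding genes or lncRNAs of smallest p with a symbol not of the Gm or Rik form and 3 other called genes, in lists the 3 largest and 3 smallest called changes or else the 2 most abundant genes (not all are printed), between litters of a treatment and for the interaction the 5 of smallest p per direction, and 4 genes per litter set apart. The P7 libraries were not used here. A few named genes are not reported here.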

Additional observations from a re-analysis of the deposited data

Results flagged for a closer look

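In 11 genes the difference between the cohorts was not the same in the HIE and the Control litters, by the interaction term of edgeR's quasi-likelihood test at adjusted p under 0.05. Given as the log2 fold change between the HIE litters minus that between the Control litters, it was -5.68 for Nsa2-ps1, 8.25 for Trim30d, 2.21 for Hpgd, 2.26 for Gm42427, 5.03 for ENSMUSG00000067017.6 and -2.95 for D17H6S56E-5. It was -12.78 for H2-Ea, -9.03 for Gm3226, -9.93 for BC018473, -7.38 for Rnf26rt and -8.08 for the pseudogene Gm14150, where fitted values against litters near 0 counts depend on the prior count and give no size. Each of these contrasts rests on 4 litters of 2 siblings, and litter and treatment cannot be told apart.

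In 102 groups of 4 animals, 2 had 1 animal far from the other 3, and chance flags about 1 in 20 groups. The lymphocyte marker score was 0.57 in P6H12-14F, compared with -0.38, -0.25 and -0.22 in the other P6H animals. Gm43361, one of the TEC transcripts called between the cohorts, was at 7.77 CPM (log2 CPM 2.97) in P4H4-8M and lower, at 5.65 to 5.94 CPM, in the other P4H animals.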

How the results depend on the processing

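The count of 250 genes called between the cohorts was 393 with the bias-adjusted fit, 155 with RLE, 3254 with no filter on low counts, 2835 with DESeq2, 612 with the hypoxia animals added, 902 with library totals (added after the data were seen), 12 with siblings summed and 0 with a sex covariate, with no treatment covariate, with the score of microglia markers in the fit or with coding genes alone. In the fits with 0, 5192, 5187, 2185 and 3270 genes had unadjusted p under 0.05. With each animal left out it ranged from 0 to 2666. With no filter the tests called 4725 genes for any litter difference, 663 for the interaction, 2298 between the HIE litters, 1228 between the Control litters, 1813 between the P4H litters and 762 between the P6H litters, and DESeq2 called 2827, 137, 1428, 328, 794 and 104. A sex covariate gave 8 between the Control litters and 2 between the P6H litters. With each animal left out the same 6 tests ranged from 6 to 351, 9 to 16, 8 to 23, 0 to 7, 3 to 15 and 1 to 13. Without P6H8-8F the litter test called 351, and without P4H4-7F or P4H4-8M the Control litters gave 0, with 1311 and 1700 genes at unadjusted p under 0.05. The cause of these changes was not tested. The 26 named genes of the cohort comparison kept their direction under RLE, library totals, DESeq2 and the microglia score. All 26 lost their call with that score, and Rps2-ps13 lost it with DESeq2 too. In the fit with that score some folds were about as large, such as those of H1f0 (0.60), Trak2 (1.01), Selenow (0.77) and H3c2 (1.10). Others shrank, such as those of Apcdd1 (from 0.81 to 0.57), Cox8a (0.79 to 0.63), Luc7l3 (-0.46 to -0.32) and Vipr1 (-2.22 to -1.81). At 4 litters, a difference between cohorts and one between litters could not be separated by a larger number of reads.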
